A study of Homo sapiens with 32 samples.

Results

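The genes described here are 39 human genes whose messenger RNAs and proteins are among the longest made by epithelial cells, chosen by name from a deposited table of 35238 genes. They code for giant cytoskeletal linkers, ubiquitin ligases, motor subunits, lipid transfer proteins and scaffolds. All 39 were present in the table and all 39 passed the filter on low values (above 1 CPM, reads scaled to a library total of 1000000, in at least 2 libraries), which left 17011 genes tested. They were listed by name with earlier results of these data known. Transcript lengths were not used here, so the label rests on what is known of these genes. Their genomic spans in the RefSeq table of GRCh38.p14 started at 26.1 kb for FLNA, and 32 of the 39 share their locus with at least 1 other annotated gene.

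Drug exposure lasted 24 h in 4 cell lines of human endometrial cancer. Ishikawa is wild type for CTNNB1, the gene of beta-catenin. Ishikawa-S33Y is derived from it and expresses beta-catenin with a substitution, and SNGM and HEC265 are the other CTNNB1-mutated lines. Each line received vehicle (0.1% DMSO), paclitaxel, SM08502, or both drugs, called the combination below, with 2 replicates in each of the 16 groups. The paclitaxel dose was 11 nM for Ishikawa, 6 nM for Ishikawa-S33Y, 11.7 nM for SNGM and 5.6 nM for HEC265. The SM08502 dose was 80 nM for Ishikawa, 85 nM for Ishikawa-S33Y, 350.7 nM for SNGM and 149 nM for HEC265. These doses had been set to cut viability by 50% in each line, so dose and line cannot be told apart, and neither can RNA input, which was 350 ng for Ishikawa and 500 ng for the other lines.

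Paclitaxel binds microtubules and keeps them from disassembling. SM08502 inhibits the CDC-like kinases, which phosphorylate the SR proteins that guide the spliceosome to exons. A very long gene carries many introns and takes a long time to transcribe, so each of its messages passes through many splicing steps.

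All 6 epithelial markers examined (EPCAM, KRT8, KRT18, KRT19, CDH1 and PAX8) were read in every line. Among 6 markers of leukocytes, endothelium, stroma and myeloid cells, COL1A1, a collagen chain, was the largest part of the sum except in SNGM. There it read at most 2.08 CPM. The 6 together amounted to 32.9 to 197 CPM in Ishikawa, 715 to 1166 CPM in Ishikawa-S33Y, and at most 10.6 CPM in SNGM and 8.63 CPM in HEC265. Depth was 13.0 to 34.1 M reads (M, 1000000 reads) in 30 libraries, whereas the Ishikawa-S33Y combination replicate 2 held 2.99 M reads and the SNGM combination replicate 2 held 1.61 M reads. In bulk RNA, fewer cells with a message and less of it per cell cannot be told apart. The labels describe cells plated in duplicate and nothing further on the independence of replicates, so the p-values below measure the spread between these samples only.

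The start regions of the genes are shown for 4 members on which the results turn: HUWE1, the member with the largest mean fall, and 3 of the 4 VPS13 paralogs, which moved in different directions. Each sequence is the 100 bases before the RefSeq start on GRCh38.p14, written 5′ to 3′ on the gene's strand, with matches to GGGCGG or CCAAT on either strand in capitals. The windows are chrX:53686720-53686819 on the minus strand for HUWE1, chr9:77177434-77177533 on the plus strand for VPS13A, chr15:62060448-62060547 on the minus strand for VPS13C and chr1:12229930-12230029 on the plus strand for VPS13D.
HUWE1: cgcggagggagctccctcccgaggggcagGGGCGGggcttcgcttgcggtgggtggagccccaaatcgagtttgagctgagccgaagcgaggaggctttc
VPS13A: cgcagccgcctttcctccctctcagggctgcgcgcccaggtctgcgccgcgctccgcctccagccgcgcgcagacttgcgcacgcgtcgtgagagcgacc
VPS13C: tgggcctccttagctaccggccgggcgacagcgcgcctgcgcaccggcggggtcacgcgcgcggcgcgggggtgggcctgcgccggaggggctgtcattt
VPS13D: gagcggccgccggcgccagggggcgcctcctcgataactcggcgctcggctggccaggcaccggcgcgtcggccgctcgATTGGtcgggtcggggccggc

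Promoters of 32 of the 39 members were in the RefSeq table. The GC box core GGGCGG, searched on both strands, lay in this window in 17 of the 32, against 31.3% of 27305 promoters. CCAAT lay in 4 of the 32, against 18.7% of all, and TATAAA in 1 of the 32, against 5.34%. The median number of CG pairs in the window was 12 for the members and 5 for all promoters. A match is a string of letters in this window and nothing more, and the paralogs VPS13A and VPS13C, which fell together in Ishikawa-S33Y, held none of the 3 motifs.

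SM08502 lowered some of these genes and raised others, and which ones depended on the line. A member is said below to have risen or fallen only where limma's moderated test gave a Benjamini-Hochberg adjusted p under 0.05 over all 17011 genes, and changes are differences in log2(CPM + 1). Treated libraries below are those with SM08502 or the combination, and leave out paclitaxel alone. With SM08502, 9 members fell and 3 rose in Ishikawa-S33Y, 3 fell in SNGM, 4 fell in HEC265, and 5 rose and none fell in Ishikawa. The shares of all tested genes called in these comparisons were 29.1% in Ishikawa-S33Y, 7.86% in SNGM, 14.7% in HEC265 and 15.2% in Ishikawa. The members were called at 30.8%, 7.69%, 10.3% and 12.8% in the same order, close to those backgrounds. By direction, 10.6% of all genes were called lower and 18.5% higher in Ishikawa-S33Y, 4.06% and 3.8% in SNGM, 5.39% and 9.27% in HEC265, and 8.68% and 6.5% in Ishikawa.

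The combination gave larger counts. It lowered 15 members and raised 2 in Ishikawa-S33Y, lowered 9 in SNGM, lowered 8 in HEC265, and raised 6 and lowered 2 in Ishikawa. Of all genes, 42% were called in Ishikawa-S33Y (18% lower and 24% higher), 18.4% in SNGM (7.54% lower and 10.8% higher), 19.5% in HEC265 (7.16% lower and 12.4% higher) and 22.8% in Ishikawa (11.2% lower and 11.6% higher). The comparisons of SM08502 and of the combination with vehicle share the vehicle libraries, so their values are set side by side and are not independent. The median change of the 39 members with the combination was -0.28 in Ishikawa-S33Y, -0.24 in SNGM, -0.23 in HEC265 and -0.03 in Ishikawa, where the medians of all genes were 0.06, 0.00, 0.09 and 0.03.

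**Figure D1:**
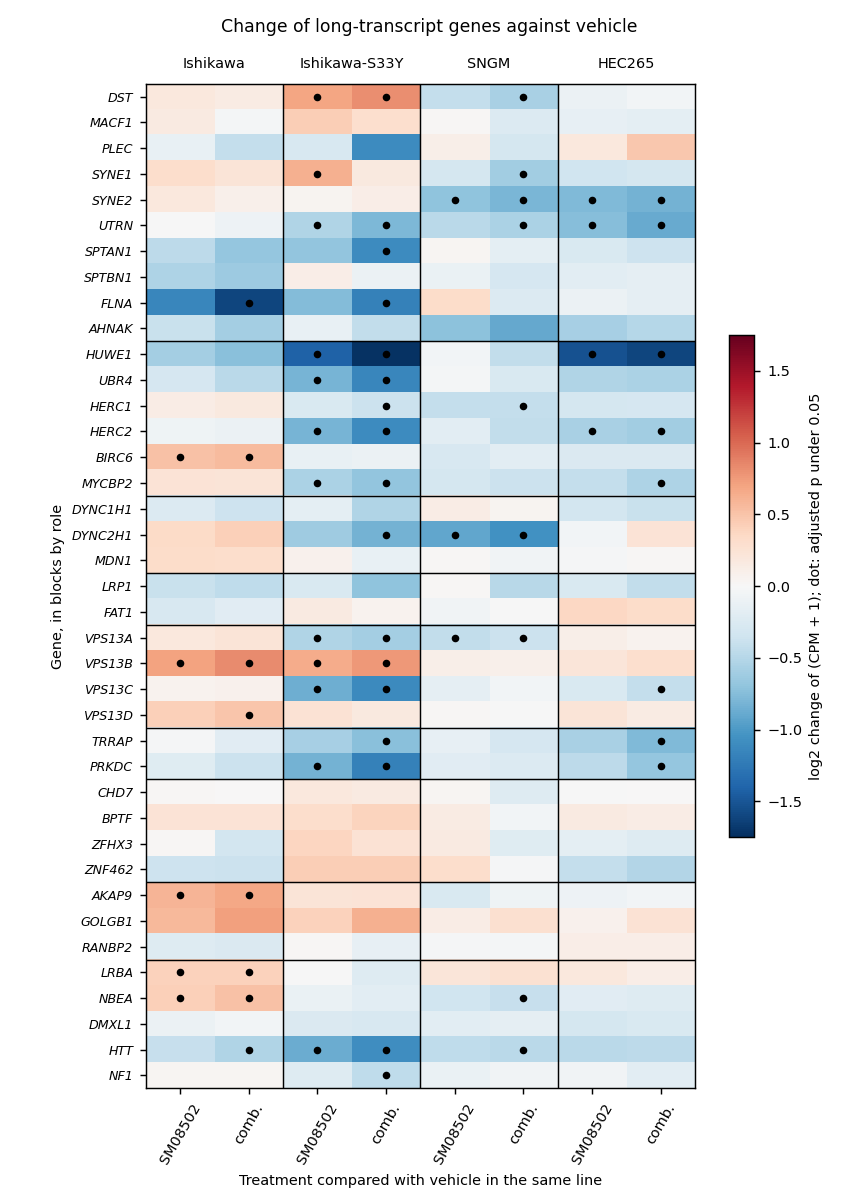
Change of each of the 39 genes (rows, in blocks by role) against vehicle of the same line, as a difference in log2(CPM + 1), for SM08502 and the combination (columns) in 4 lines, 2 libraries a group. Dots mark adjusted p under 0.05. Blue cells with dots are most frequent in Ishikawa-S33Y, where 15 members fell with the combination, while the dots in Ishikawa are mostly red.

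No member was called in 1 direction in all 4 lines. With SM08502, HUWE1, HERC2, UTRN, SYNE2 and VPS13A fell in 2 lines each, and VPS13B rose in 2. Of all genes, 7.1% fell and 9.05% rose in at least 2 lines with SM08502, against 12.8% and 2.56% of the members. With the combination, 13 members (33.3%) fell in at least 2 lines, where 10.9% of all genes did, and HTT and UTRN (5.13%) fell in 3, where 3.76% of all genes fell in at least 3. VPS13B alone rose in at least 2 lines with the combination, where 15.1% of all genes did. Taking sign alone, 9 members were below vehicle in every line with SM08502 (AHNAK, DMXL1, HERC2, HTT, HUWE1, PRKDC, TRRAP, UBR4 and UTRN) and 4 were above it in every line (BPTF, GOLGB1, VPS13B and VPS13D). Those are 23.1% and 10.3% of the members, where 12.6% and 20.6% of all genes had these signs. Averaged over the 4 lines with equal weight, 15 members fell and 3 rose with SM08502, where 15.8% of all genes fell and 22.6% rose (38.5% called). For the combination the averaged counts were 18 and 4, where 20.1% fell and 29% rose (49.1% called).

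The ubiquitin ligases held the largest fall. HUWE1, a HECT-type ligase with many substrates including MCL1 and p53, lies on chromosome X (53532096 to 53686719 on GRCh38.p14). In HEC265 it measured 638 and 601 CPM with vehicle, 221 and 206 CPM with SM08502, and 201 and 203 CPM with the combination. In Ishikawa-S33Y it measured 437 and 399 CPM with vehicle, 174 and 140 CPM with SM08502, and 121 and 129 CPM with the combination. In both lines every treated library lay far below both vehicle libraries, and the mean with SM08502 was 34.5% of vehicle in HEC265 and 37.6% in Ishikawa-S33Y. The changes of HUWE1 were -1.53 ± 0.26 (SE, adjusted p = 0.000434) in HEC265 and -1.41 ± 0.26 (adjusted p = 0.000434) in Ishikawa-S33Y, and -1.61 and -1.73 with the combination.

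HUWE1 was not called in SNGM, the line given the highest dose of SM08502. It read 417 and 491 CPM with vehicle and 457 and 421 CPM with SM08502, overlapping ranges, with a change of -0.05 ± 0.26. The combination libraries of SNGM read 405 and 281 CPM, the lower value being the library of 1.61 M reads. The change of HUWE1 with SM08502 was lower in HEC265 than in SNGM by 1.49 (SNGM minus HEC265, adjusted p = 0.04) and lower in Ishikawa-S33Y than in SNGM (difference -1.37, adjusted p = 0.0241). In Ishikawa, HUWE1 read 187 and 230 CPM with vehicle, 168 and 112 CPM with SM08502 and 128 and 122 CPM with the combination, all treated libraries below both vehicle libraries, yet the changes of -0.59 and -0.73 missed the threshold (adjusted p = 0.139 and 0.0508).

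HERC2, a giant ligase of the DNA damage response, fell in Ishikawa-S33Y by 0.81 with SM08502 and by 1.10 with the combination, and in HEC265 by 0.57 and 0.61. UBR4, which recognises N-terminal degradation signals, fell in Ishikawa-S33Y (-0.81 and -1.15), and its difference from the other lines was not called. MYCBP2, a RING-type ligase, fell in Ishikawa-S33Y (-0.55 and -0.68) and with the combination in HEC265 (-0.54). HERC1 fell under both drugs together, by 0.37 in Ishikawa-S33Y and by 0.41 in SNGM. Of the 6 ligases, 4 fell and none rose in Ishikawa-S33Y with SM08502, with a median of -0.68, while the median in Ishikawa was 0.03. The HERC2 calls in HEC265 were lost in 6 of 14 alternatives for SM08502 and 5 of 14 for the combination, and those of HERC1 in 7 of 14 in each line.

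BIRC6 went the other way. This giant inhibitor of apoptosis joins ubiquitin-conjugating and ligase activity. It read 215 and 197 CPM with vehicle in Ishikawa, 251 and 341 CPM with SM08502, and 306 and 301 CPM with the combination, so every treated library was above both vehicle libraries. BIRC6 rose there by 0.51 ± 0.11 (adjusted p = 0.00334) and 0.56 ± 0.11 (adjusted p = 0.00108). In the other 3 lines its changes ran from -0.28 to -0.11 and none was called. The change in Ishikawa exceeded that in each other line, by 0.64 against Ishikawa-S33Y, 0.79 against SNGM and 0.76 against HEC265 for SM08502 (adjusted p = 0.0313, 0.00694 and 0.0101).

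PRKDC and TRRAP belong to the phosphatidylinositol 3-kinase-related kinase family. PRKDC is the catalytic subunit of DNA-PK, which joins broken DNA ends, and TRRAP is a scaffold of histone acetyltransferase complexes that lacks kinase activity. PRKDC in Ishikawa-S33Y read 344 and 328 CPM with vehicle, 202 and 178 CPM with SM08502 and 135 and 162 CPM with the combination. Those are falls of 0.82 ± 0.17 and 1.18 ± 0.17 (adjusted p = 0.0012 and 1.62e-05), with no overlap between treated and vehicle libraries. In HEC265, PRKDC read 558 and 526 CPM with vehicle and 331 and 345 CPM with the combination, a fall of 0.68. TRRAP fell with the combination in Ishikawa-S33Y (-0.73) and HEC265 (-0.77). In SNGM, PRKDC read 1280 and 1188 CPM with vehicle and 955 and 1207 CPM with SM08502, and its changes of -0.20 and -0.24 were not called.

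Of the 10 cytoskeletal linkers, SYNE2, DST and SYNE1 responded to SM08502 differently between lines by the F test given below. SYNE2, a nesprin that couples the nuclear envelope to actin, lies on chromosome 14 (63761596 to 64226449). In HEC265 it read 194 and 185 CPM with vehicle, 118 and 103 CPM with SM08502, and 109 and 104 CPM with the combination. In SNGM it read 287 and 337 CPM with vehicle, 207 and 174 CPM with SM08502, and 214 and 147 CPM with the combination. The treated libraries of both lines lay below both vehicle libraries, with falls of SYNE2 of 0.77 ± 0.15 in HEC265 (adjusted p = 0.00142) and 0.71 ± 0.15 in SNGM (adjusted p = 0.00505) for SM08502. In Ishikawa it read 97.05 and 102 CPM with vehicle and 111 and 116 CPM with SM08502, and in Ishikawa-S33Y 123 and 120 CPM with vehicle and 124 and 126 CPM with SM08502. The changes in HEC265 and SNGM were lower than those in Ishikawa by 0.96 and 0.89 (adjusted p = 0.0195 and 0.0255) and lower than those in Ishikawa-S33Y by 0.82 and 0.75 (adjusted p = 0.0271 and 0.0307).

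UTRN, the homolog of dystrophin that ties actin to the membrane, fell with the combination in every CTNNB1-mutated line and was not called in Ishikawa. It read 147 and 137 CPM with vehicle, 84.8 and 84.6 CPM with SM08502 and 77.2 and 76.3 CPM with the combination in HEC265. In Ishikawa-S33Y the values were 106 and 98.0, 72.2 and 69.1, and 52.2 and 66.2 CPM in the same order, and in SNGM 239 and 275, 187 and 183, and 200 and 153 CPM. Every treated library of these 3 lines lay below both vehicle libraries of its line. Changes with the combination were -0.88 in HEC265, -0.78 in Ishikawa-S33Y and -0.55 in SNGM, against -0.09 in Ishikawa, where UTRN read 47.2 and 53.7 CPM with vehicle and 45.5 and 48.9 CPM with the combination. The difference between Ishikawa and the mutated lines was not called (adjusted p = 0.0646 against HEC265, 0.0691 against Ishikawa-S33Y and 0.244 against SNGM). The UTRN call with the combination was lost in 6 of 14 alternatives in SNGM, and in 0 of 14 in HEC265 and in Ishikawa-S33Y. Its call with SM08502 in Ishikawa-S33Y was lost in 4 of 14.

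DST, the spectraplakin dystonin, moved in opposite directions. In Ishikawa-S33Y it read 34.0 and 32.2 CPM with vehicle, 53.1 and 54.9 CPM with SM08502 and 58.8 and 59.2 CPM with the combination, a rise of 0.69 ± 0.18 (adjusted p = 0.00721) and of 0.82 ± 0.18 (adjusted p = 0.00117). In SNGM it read 202 and 230 CPM with vehicle, 167 and 157 CPM with SM08502 and 181 and 116 CPM with the combination, a fall of 0.57 with the combination. The changes of DST in these lines differed by 1.11 for SM08502 (adjusted p = 0.00983) and 1.39 for the combination (adjusted p = 0.000763). The related MACF1 was called in no line. The SNGM call of DST was lost in 7 of 14 alternatives, and that of SM08502 in Ishikawa-S33Y in 2.

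FLNA, filamin A, which cross-links actin, fell with the combination in Ishikawa by 1.61 ± 0.46 (adjusted p = 0.0167) and in Ishikawa-S33Y by 1.18 ± 0.46 (adjusted p = 0.0467). In Ishikawa-S33Y it read 1655 and 1645 CPM with vehicle, 1025 and 927 CPM with SM08502 and 665 and 800 CPM with the combination. In Ishikawa the vehicle libraries read 438 and 716 CPM, the combination 200 and 168 CPM, but the SM08502 libraries 461 and 138 CPM, so replicate 1 stood within the vehicle range and replicate 2 far below it. FLNA in HEC265 kept to 1904 to 2239 CPM in the vehicle, SM08502 and combination libraries. SPTAN1, the alpha chain of spectrin, fell with the combination in Ishikawa-S33Y by 1.11, from 398 and 387 CPM to 169 and 196 CPM. SYNE1, the other nesprin, rose with SM08502 in Ishikawa-S33Y (11.6 and 10.8 CPM to 17.1 and 18.5 CPM, 0.62) and fell with the combination in SNGM (195 and 224 CPM to 163 and 116 CPM, -0.60). SYNE1 overlaps ESR1 and antisense genes, and strand was not given, so its reads may include theirs. The FLNA calls were lost in 4 of 14 alternatives in Ishikawa and 6 of 14 in Ishikawa-S33Y, and those of SYNE1 in 5 of 14 in Ishikawa-S33Y and 6 of 14 in SNGM.

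The VPS13 family contained both rises and falls. These 4 paralogs are bridge-like proteins that carry lipids between organelles at contact sites. VPS13B, which acts at the Golgi, read 57.5 and 51.7 CPM with vehicle in Ishikawa, 80.7 and 98.8 CPM with SM08502 and 97.9 and 96.1 CPM with the combination. In Ishikawa-S33Y it read 65.0 and 65.3 CPM with vehicle, 104 and 102 CPM with SM08502 and 108 and 114 CPM with the combination. All 8 treated libraries of these related lines lay above their vehicle libraries. The rises of VPS13B were 0.70 ± 0.11 (adjusted p = 0.000144) and 0.82 ± 0.11 in Ishikawa, and 0.65 ± 0.11 (adjusted p = 0.000106) and 0.76 ± 0.11 in Ishikawa-S33Y. In SNGM and HEC265 its changes were 0.08 to 0.29 and not called, and the rise with SM08502 in Ishikawa exceeded that in SNGM by 0.60 (adjusted p = 0.0304).

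VPS13C, found at contacts of the endoplasmic reticulum with late endosomes, fell in Ishikawa-S33Y where VPS13B rose. It read 116 and 117 CPM with vehicle, 66.9 and 60.7 CPM with SM08502 and 48.2 and 58.5 CPM with the combination, falls of 0.86 ± 0.12 (adjusted p = 3.41e-05) and 1.12 ± 0.12 (adjusted p = 6.27e-07). In the parental Ishikawa it read 83.7 and 83.5 CPM with vehicle, 81.9 and 92.8 CPM with SM08502 and 89.5 and 87.3 CPM with the combination. No treated library of Ishikawa stood much apart from vehicle, and the changes of VPS13C in the pair of lines differed by 0.92 for SM08502 (adjusted p = 0.00808) and 1.20 for the combination (adjusted p = 0.000301). VPS13A, the chorein gene, followed a like course: 119 and 117 CPM with vehicle and 82.7 and 81.1 CPM with SM08502 in Ishikawa-S33Y, against 112 and 116 CPM and 111 and 152 CPM in Ishikawa. VPS13A also fell in SNGM, from 259 and 255 CPM to 171 and 212 CPM with SM08502 and 196 and 199 CPM with the combination (-0.43 and -0.38). In HEC265, VPS13A read 64.6 and 67.8 CPM with vehicle and 74.0 and 68.7 CPM with SM08502. VPS13D, which acts at mitochondria and peroxisomes, rose in Ishikawa with the combination by 0.49 (36.3 and 33.7 CPM to 51.4 and 47.8 CPM).

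**Figure D2:**
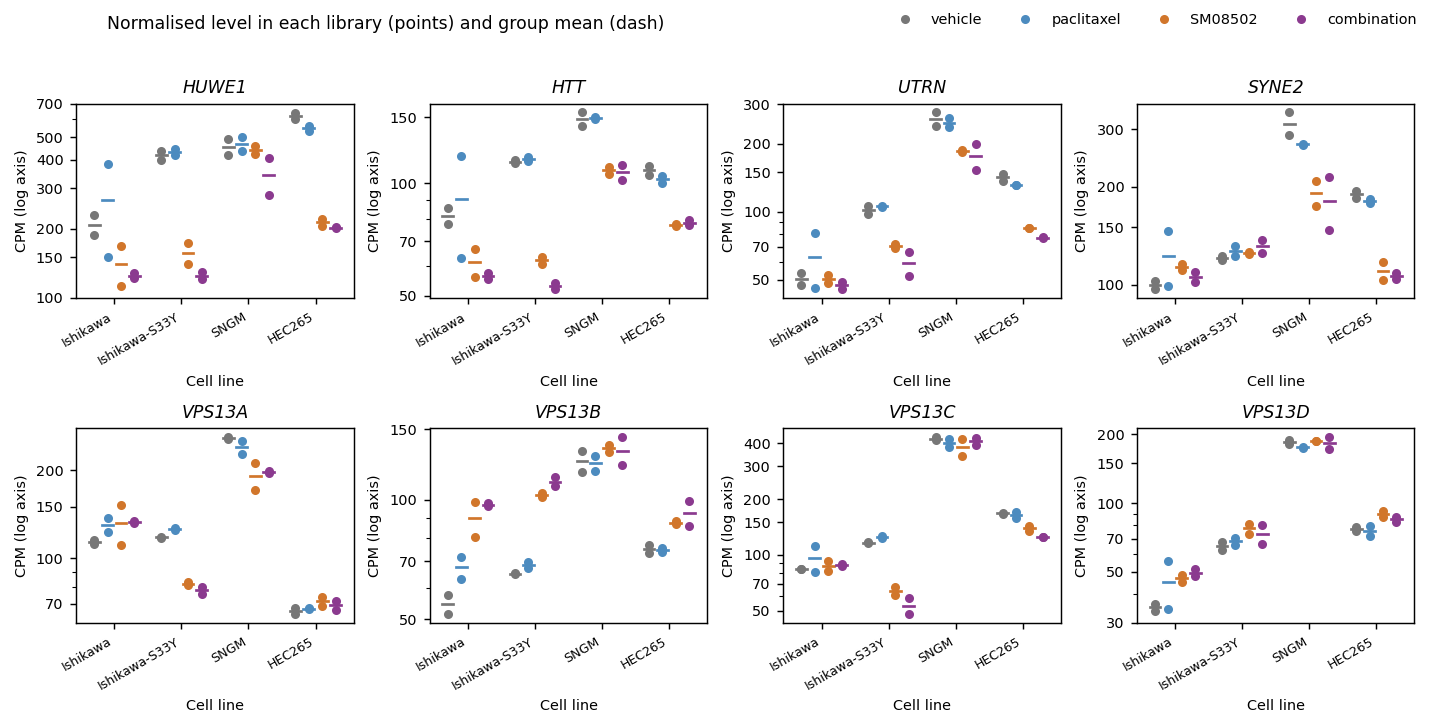
Normalised level (CPM, log axis) of 8 of the genes in each library of the 4 lines, coloured by treatment, with a dash at the group mean of 2 libraries. HUWE1 drops in HEC265 and Ishikawa-S33Y and not in SNGM with SM08502, VPS13B rises in Ishikawa and Ishikawa-S33Y, and the paclitaxel points of Ishikawa lie far apart in most panels.

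Among the motor genes, DYNC2H1, the heavy chain of the dynein of cilia, fell in SNGM. It read 30.1 and 33.7 CPM with vehicle, 15.6 and 17.4 CPM with SM08502, and 21.9 and 9.96 CPM with the combination, falls of 0.91 ± 0.24 (adjusted p = 0.0206) and 1.05 ± 0.24 (adjusted p = 0.00433). The lower combination value was 16 reads in the shallow library. With the combination DYNC2H1 also fell in Ishikawa-S33Y, from 47.7 and 45.3 CPM to 30.7 and 21.7 CPM (-0.82), while Ishikawa read 32.4 and 25.6 CPM with vehicle and 40.2 and 37.5 CPM with the combination. In HEC265 it was all but silent, with 1 to 12 reads a library. The SNGM call of DYNC2H1 with SM08502 was lost in 6 of 14 alternatives. DYNC1H1, the heavy chain of cytoplasmic dynein, and MDN1, an ATPase of large ribosomal subunit assembly, were called in no line.

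Of the 3 Golgi, centrosome and nuclear pore scaffolds, 1 rose, in Ishikawa. AKAP9, which anchors protein kinase A at the centrosome and Golgi, read 17.1 and 21.3 CPM with vehicle, 30.4 and 28.6 CPM with SM08502 and 29.2 and 33.3 CPM with the combination, rises of 0.60 ± 0.17 (adjusted p = 0.0193) and 0.68 ± 0.17 (adjusted p = 0.00648). All 4 treated libraries stood above both vehicle libraries, and so did the paclitaxel libraries of Ishikawa, at 35.3 and 21.5 CPM. NBEA and LRBA, BEACH-domain proteins of vesicle traffic, rose there as well. NBEA went from 33.9 and 36.8 CPM to 44.2 and 51.0 CPM with SM08502 and 52.4 and 49.7 CPM with the combination (0.42 and 0.52), and LRBA went from 217 and 210 CPM to 259 and 306 CPM and to 290 and 275 CPM (0.40 and 0.40). In SNGM, NBEA fell with the combination from 75.1 and 80.2 CPM to 58.8 and 58.5 CPM (-0.40). The change of NBEA in Ishikawa exceeded those in SNGM by 0.92, HEC265 by 0.75 and Ishikawa-S33Y by 0.70 for the combination (adjusted p = 0.00242, 0.0106 and 0.00966).

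HTT, huntingtin, a large scaffold of vesicle transport, was below vehicle in every line. It read 115 and 113 CPM with vehicle in Ishikawa-S33Y, 63.5 and 60.9 CPM with SM08502 and 54.1 and 52.2 CPM with the combination. In HEC265 it read 111 and 105, 77.7 and 77.0, and 79.6 and 77.1 CPM in the same order, in SNGM 142 and 154, 106 and 110, and 112 and 102 CPM, and in Ishikawa 77.6 and 85.8, 66.6 and 56.3, and 57.6 and 55.6 CPM. In each of the 4 lines every library with SM08502 or the combination was below both vehicle libraries, as it was for DMXL1 and HERC2. DMXL1 was nonetheless called in no line. The share of all genes with this pattern is not given here, so it has no background. HTT fell with SM08502 in Ishikawa-S33Y by 0.87 ± 0.16 (adjusted p = 0.000436), and with the combination in Ishikawa-S33Y by 1.09, Ishikawa by 0.52 and SNGM by 0.47. The changes with the combination in HEC265 (-0.46, adjusted p = 0.0504) and with SM08502 in HEC265 (-0.48, adjusted p = 0.0515), SNGM (-0.45, adjusted p = 0.0985) and Ishikawa (-0.41, adjusted p = 0.0929) missed the threshold. Averaged over lines, HTT fell by 0.55 ± 0.08 with SM08502 (adjusted p = 1.68e-05). The calls with the combination were lost in 5 of 14 alternatives in Ishikawa and 7 of 14 in SNGM. NF1, a GTPase-activating protein for RAS, fell with the combination in Ishikawa-S33Y by 0.44, and its locus holds OMG, EVI2A and EVI2B.

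A set of 15 members was called in no line for either SM08502 or the combination: AHNAK, BPTF, CHD7, DMXL1, DYNC1H1, FAT1, GOLGB1, LRP1, MACF1, MDN1, PLEC, RANBP2, SPTBN1, ZFHX3 and ZNF462. They were 38.5% of the members, and 37.3% of all genes tested were called in no line, so the share was close to the background. They include all 4 chromatin and zinc finger factors and both surface receptors. Membership of this set depends on the spread pooled over all lines. Fits on each line alone, quality weights and the length score each left far fewer members called in no line, as given below. For CHD7, a chromatin remodeler mutated in CHARGE syndrome, the 8 changes lay between -0.23 and 0.19, and for RANBP2, a nucleoporin of the cytoplasmic filaments, between -0.25 and 0.12. For BPTF, a subunit of the NURF remodeler, they lay between -0.05 and 0.38. Others in the set moved further without passing the test. PLEC, plectin, stood at 189 and 182 CPM with vehicle and 86.8 and 85.9 CPM with the combination in Ishikawa-S33Y, a change of -1.09 ± 0.50 (adjusted p = 0.0848), the error being pooled over all lines. AHNAK, a giant scaffold under the plasma membrane, read 4111 and 4052 CPM with vehicle and 2411 and 2560 CPM with SM08502 in SNGM, a change of -0.72 ± 0.32, and averaged over lines it fell by 0.46 (adjusted p = 0.0283), a call lost in 9 of its 25 alternatives. GOLGB1, the Golgi protein giantin, was above vehicle in all 4 lines in both comparisons, by 0.07 to 0.72, and rose with the combination averaged over lines by 0.47 (adjusted p = 0.00481).

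The spread behind these calls was pooled over all 32 libraries. Fits on each line's own 8 libraries called 26 members in Ishikawa-S33Y (17 lower), 21 in HEC265 (18 lower) and 0 in Ishikawa and SNGM for SM08502. Of all genes, these fits called 40.3% in Ishikawa-S33Y, 41.3% in HEC265, 0.735% in SNGM and 0.282% in Ishikawa, and of the members 66.7% in Ishikawa-S33Y and 53.8% in HEC265. For the combination they called 29 in Ishikawa-S33Y (20 lower), 24 in HEC265 (21 lower), 3 in SNGM (all lower) and 1 in Ishikawa (VPS13B, higher). The shares of all genes were 51.7% in Ishikawa-S33Y, 47.2% in HEC265, 3.36% in SNGM and 2.13% in Ishikawa. Members gained calls in Ishikawa-S33Y and HEC265, where replicates were close, and lost them in Ishikawa and SNGM.

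Replicate scatter was largest in Ishikawa. The paclitaxel replicates of that line disagreed in all 39 members, replicate 1 being higher every time, by a median of 0.77 and by 0.13 to 2.07 on the log2 scale. FLNA read 881 and 218 CPM in that pair, HUWE1 381 and 151 CPM, and HTT 118 and 63.2 CPM. The SM08502 replicates of Ishikawa differed by a root mean square of 0.64, with gaps from -0.49 to 1.73, and 24 members were higher in replicate 1. The vehicle pair differed by 0.33 in root mean square and the combination pair by 0.13. In Ishikawa-S33Y and HEC265 the root mean square gaps were 0.0697 to 0.23, and in SNGM they were 0.22 to 0.24 except for the combination with its shallow library (0.52).

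In the paclitaxel pair of Ishikawa the members and the ribosomal protein genes differed between replicates in opposite directions. The mean log2 level of the 39 members minus that of 79 ribosomal protein genes, whose messages are short, was -1.76 and -3.36 in the 2 paclitaxel libraries of Ishikawa, -2.48 and -3.33 with SM08502, -2.93 and -2.51 with vehicle, and -3.01 and -3.14 with the combination. All 79 ribosomal protein genes were higher in paclitaxel replicate 2, by a median of 0.69. Another list of 62 genes with long transcripts showed the same replicate order, with 57 of 62 higher in paclitaxel replicate 1. RNA integrity values were not in the labels, and the part of library quality in the changes of Ishikawa was not tested. Fits with the length score, quality weights and single libraries left out give only how the calls moved. The quality weights were equal within each pair (0.155 for both Ishikawa paclitaxel libraries). They could therefore not tell 1 replicate of a pair from the other.

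**Figure D3:**
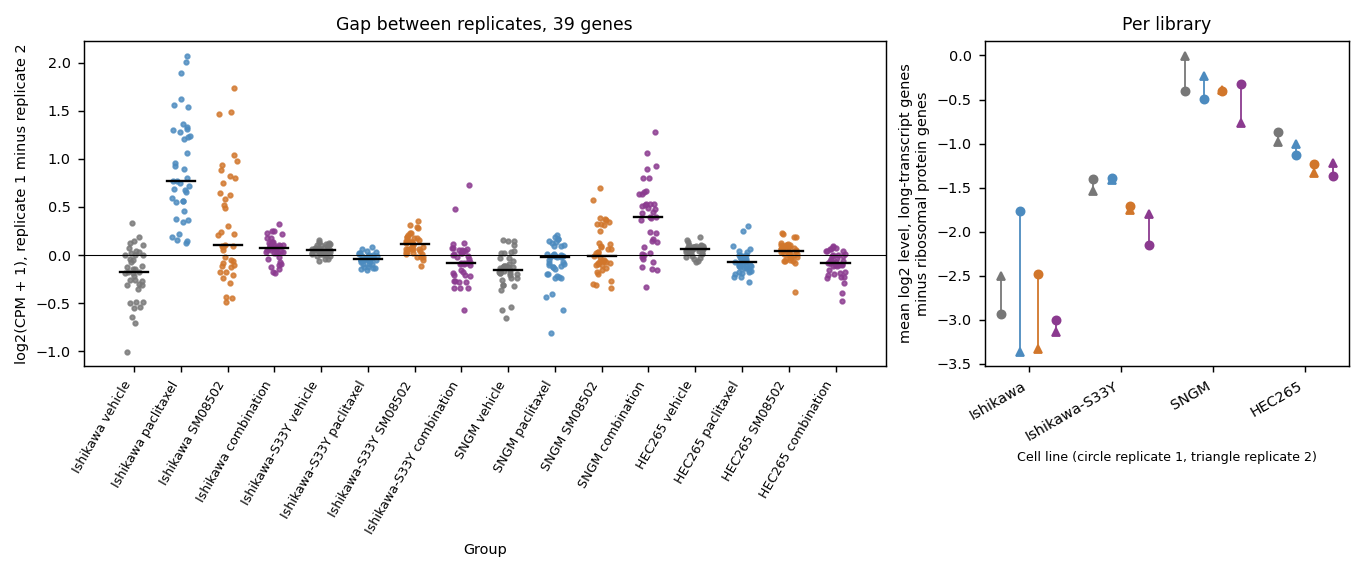
Left, replicate 1 minus replicate 2 in log2(CPM + 1) for each of the 39 genes (points) in the 16 groups, with a bar at the median. Right, mean log2 level of the 39 genes minus that of 79 ribosomal protein genes in each library, with replicates joined. The Ishikawa paclitaxel points all lie above 0, with a median of 0.77, and its 2 libraries lie at -1.76 and -3.36.

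Against this scatter, 6 members had both Ishikawa SM08502 libraries below both vehicle libraries (DMXL1, FAT1, HERC2, HTT, HUWE1 and PRKDC), 13 had both above, and 20 overlapped. With 2 libraries against 2, 25% of all genes lay below in this way and 26.5% above. In Ishikawa-S33Y the same counts were 21, 14 and 4, in HEC265 27, 8 and 4, and in SNGM 16, 2 and 21. Of all genes, 29.1% lay below and 48.8% above in Ishikawa-S33Y, 25.5% and 45.1% in HEC265, and 26.4% and 27.4% in SNGM. The 5 members that rose with SM08502 in Ishikawa were among the 13. Leaving out a library moved the Ishikawa count of 5: it was 2 without either vehicle replicate, 8 (5 higher and 3 lower) without SM08502 replicate 1, and 1 without SM08502 replicate 2. With quantile normalization 8 rose and 1 fell, and with the length score 10 rose and 4 fell. The shares of all genes in these fits are not given here. For the combination in Ishikawa, the count of 8 became 4, all higher, without vehicle replicate 2 or either combination replicate, so the falls of FLNA and HTT there rest on all of these libraries.

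Counts in the other lines moved with single libraries too. In Ishikawa-S33Y the 12 calls with SM08502 became 7 without SM08502 replicate 2, and the 17 with the combination became 11 without vehicle replicate 1. In HEC265 the 4 calls became 2 without vehicle replicate 1, and the 8 with the combination became 3 without vehicle replicate 1 and 4 without vehicle replicate 2 or either combination replicate. In SNGM the 3 calls with SM08502 became 0 without vehicle replicate 2 and 1 without any of the other 3 libraries. Most of the 9 calls with the combination in SNGM were lost without the shallow replicate 2 of 1.61 M reads. Most were also lost without either vehicle replicate, and more members were called without combination replicate 1. The SNGM calls with the combination thus moved with several single libraries, and the part of low depth was not tested. Leaving out a library also weakens the test for every gene. The shares of all genes in these fits are not given here. A shift of the members therefore cannot be told apart from a shift in the calls of all genes. With the length score as covariate, 11 members rose and 13 fell with SM08502 in Ishikawa-S33Y, and 4 rose and 9 fell in HEC265. The shares of all genes with this covariate are not given here.

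Paclitaxel alone moved no member past the threshold in any line by limma. In Ishikawa 8 members had an unadjusted p under 0.05, all above vehicle, and in the other lines 0 did. The share of all genes at an unadjusted p under 0.05 is not given here, so these counts have no background. At the adjusted threshold, 0.0176% of all genes were called in SNGM, 0.0118% in Ishikawa, 0.00588% in HEC265 and 0% in Ishikawa-S33Y. In Ishikawa the count was 10, all higher, without paclitaxel replicate 2 and 1, lower, without replicate 1. In the combination against SM08502 alone, 0 members were called in every line. At an unadjusted p under 0.05 there were 2 in Ishikawa-S33Y, and 0 in the other lines. These counts have no share of all genes beside them either. At the adjusted threshold, 0.129% of all genes were called in this comparison in Ishikawa-S33Y, 0.253% in SNGM, 0.00588% in HEC265 and 0% in Ishikawa.

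The combination against paclitaxel shares no library with the comparison of SM08502 with vehicle. It was chosen after the data had been seen. The combination lowered 16 members and raised 2 in Ishikawa-S33Y, lowered 5 in SNGM, lowered 4 in HEC265, and raised 2 and lowered 2 in Ishikawa. Of all genes, 39.4% were called in Ishikawa-S33Y (17.4% lower and 22.1% higher), 15.9% in SNGM (6.6% and 9.28%), 14.9% in HEC265 (6.53% and 8.39%) and 14.4% in Ishikawa (6.14% and 8.3%). HUWE1 fell by 1.78 ± 0.26 in Ishikawa-S33Y (adjusted p = 2.11e-05), by 1.43 ± 0.26 in HEC265 (adjusted p = 0.000746) and by 0.94 ± 0.26 in Ishikawa (adjusted p = 0.0208). VPS13B rose by 0.68 ± 0.11 in Ishikawa-S33Y and 0.52 ± 0.11 in Ishikawa. VPS13C fell by 1.22 in Ishikawa-S33Y, SYNE2 by 0.76 in HEC265 and 0.60 in SNGM, UTRN by 0.83, 0.77 and 0.50 in Ishikawa-S33Y, HEC265 and SNGM, and HTT by 1.11, 0.60 and 0.48 in Ishikawa-S33Y, Ishikawa and SNGM. Over the 39 members the change without paclitaxel and the change with it had a Pearson r of 0.97 in Ishikawa-S33Y, 0.95 in HEC265, 0.88 in Ishikawa and 0.74 in SNGM, given as a description across genes of the same libraries. In Ishikawa the 4 calls became 28, of which 27 were lower, without paclitaxel replicate 2, 7, all higher, without paclitaxel replicate 1, and 1 without either combination replicate.

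**Figure D4:**
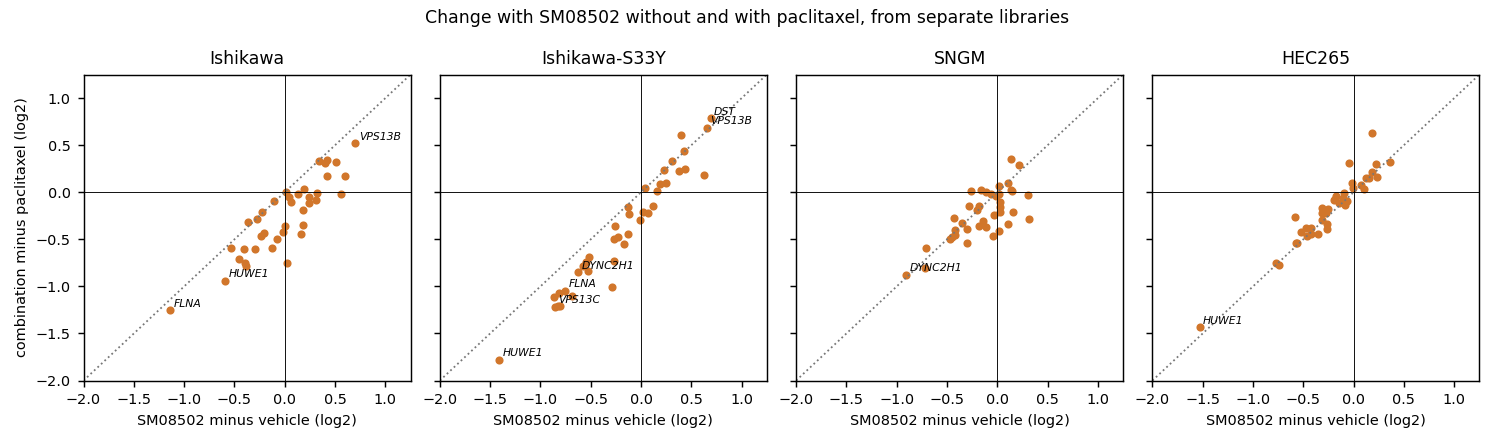
Change with SM08502 against vehicle (horizontal, log2) and with the combination against paclitaxel (vertical, log2) for the 39 genes in each line; each point is a gene and the dotted line marks equality. HUWE1 lies near -1.4 or below on both axes in Ishikawa-S33Y and HEC265 (-1.41 and -1.78, -1.53 and -1.43), and 36 of the 39 Ishikawa points lie below the dotted line.

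Whether the lines responded alike was tested for each gene with a moderated F test on 3 degrees of freedom. The response to SM08502 differed between lines for 10 members (BIRC6, SYNE2, VPS13A, VPS13C, VPS13B, NBEA, HUWE1, DST, SYNE1 and DYNC2H1), where 12.4% of all genes passed. The response to the combination differed for 13, where 27.1% passed, the additional ones being LRBA, PRKDC, MYCBP2 and HERC2, while SYNE1 was no longer among them. For DYNC2H1 both tests include HEC265, where it held 1 to 12 reads a library. The pseudocount understates its change there, which limits these calls and its averages over lines. The correlation of the SM08502 changes over the 39 members, given as a description across genes, was highest between Ishikawa-S33Y and HEC265 (Pearson r = 0.56) and lowest between Ishikawa and SNGM (-0.20). Ishikawa and its derivative Ishikawa-S33Y had r = 0.50.

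Before any drug, the long-transcript genes were higher in Ishikawa-S33Y than in Ishikawa. On vehicle 27 members were called higher and none lower, where 48.3% of all genes were called, 20% higher and 28.2% lower, and the median difference was 0.67. AHNAK differed most, with 97.6 and 111 CPM in Ishikawa and 791 and 761 CPM in Ishikawa-S33Y (2.89). LRP1, an endocytic receptor, read 17.9 and 25.6 CPM in Ishikawa and 133 and 123 CPM in Ishikawa-S33Y (2.52), and MACF1 77.9 and 96.6 CPM and 364 and 353 CPM (2.03). LRBA (-0.16) and DMXL1 (-0.10), a regulator of the vacuolar proton pump, were the only members below 0, and neither was called. Beside this, 44 of the 62 other long-transcript genes were higher and 4 lower, and 33 of the 79 ribosomal protein genes were lower and 1 higher. With the length score as covariate, 10 members were higher and 3 lower, and the share of all genes in that fit is not given here. RNA input was 350 ng against 500 ng in these lines, and its part in the difference cannot be told apart from the line.

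A list of 62 other genes with long transcripts gave different counts. Averaged over lines with SM08502, 13 of the 62 fell and 9 rose, with a median of -0.00, where 15 of the 39 members fell and 3 rose, with a median of -0.15, and the median of all genes was 0.05. The difference between the lists was not tested. CELSR1, an atypical cadherin of planar cell polarity, fell by 1.57 and MYH9, a non-muscle myosin heavy chain, fell by 1.52, whereas ALMS1, a centrosomal protein, rose by 0.49 and ATR, a kinase of the replication checkpoint, by 0.47. With the combination in Ishikawa-S33Y, 19 of the 62 fell and 8 rose. Genomic span did not order the changes in 1 way: over the 39 members the Pearson r of the SM08502 change with log span was 0.55 in Ishikawa, 0.38 in Ishikawa-S33Y, 0.09 in HEC265 and -0.26 in SNGM, given as a description across genes. The listed span of RANBP2 reaches over 18 other genes. All tested genes with a span were split by span into 5 classes of 3057 genes. The class with the longest spans had median changes with SM08502 of 0.05 in Ishikawa-S33Y, -0.00 in HEC265, -0.02 in SNGM and -0.04 in Ishikawa. Medians of the other classes were higher, at 0.08 to 0.14, 0.06 to 0.13, 0 to 0.02 and -0.01 to 0.01 in that order. The longest class also had the largest share called lower: 14.7%, 10.0%, 5.23% and 10.9%, against at most 11.0%, 6.51%, 4.65% and 9.09%. These differences were not tested.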

How the data were processed

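RNA from 32 libraries (4 lines, 4 treatments, 2 replicates a group) was depleted of ribosomal RNA and sequenced. The authors deposited 1 table of log10(CPM + 1) values for 35238 genes, the unit being read from the values. STAR, kallisto, bcl2fastq and GRCh38 are named, per the submitters' processing notes, with no role. The counting program, annotation and strand setting are not given in the sources used here. The deposited log10 values were turned back into CPM, which came out as whole reads within a tolerance of 0.02, and depth was taken from them.

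Genes above 1 CPM in at least 2 libraries (17011) were tested on log2(CPM + 1), pseudocount 1, with limma 3.58.1 in R 4.3.3, with 1 mean per group over all 32 libraries, 16 residual degrees of freedom and the intensity trend. A pseudocount understates the change of low genes. P-values were adjusted by Benjamini-Hochberg over all genes tested, at 0.05. The members and the other gene lists were chosen with earlier results of these data known. All 39 members could be named. Full values are given for the 3 largest falls and 2 largest rises called in each line, for the smallest adjusted p of the difference between lines, and for members called in no line by their range. Lines were compared within each drug by an F test and by 6 pairs of lines.

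Alternatives were filters, pseudocount 0.1, median re-centring, quantile normalization, fits on each line alone, quality weights, voom on the recovered reads, a length score covariate (per library, the mean log2 level of 62 other long genes less the mean over 79 ribosomal protein genes), a replicate block, and each library left out. The fit was tested on simulated data with the same spread in every library. That setting leaves out discordant replicates such as those of Ishikawa, so the test does not bear on them. Its outcome is not given here. Shared replicate numbers do not pair the samples by the labels.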

Additional observations from a re-analysis of the deposited data

Results flagged for a closer look

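The response to SM08502 differed between the 4 lines for 10 of the 39 members (25.6%), where 12.4% of all genes passed. The response to the combination differed for 13 (33.3%), where 27.1% of all genes passed. Each count is by the moderated F test of the difference itself (limma, Benjamini-Hochberg adjustment over all genes). For SM08502 the smallest adjusted p-values belonged to BIRC6 (0.00423), which rose in Ishikawa alone by the threshold used, SYNE2 (0.00582), which fell in SNGM and HEC265, and VPS13A (0.00689), which fell in Ishikawa-S33Y and SNGM. For the combination they belonged to VPS13C (0.000193), which fell in Ishikawa-S33Y and HEC265, NBEA (0.00152), which rose in Ishikawa and fell in SNGM, and SYNE2 (0.00156), which fell in SNGM and HEC265. All 6 kept the call of the F test in each of 25 alternatives. Some calls in single lines held less well. With SM08502, BIRC6 in Ishikawa and SYNE2 in SNGM each lost the call in 3 of 14, and VPS13A in SNGM in 5. With the combination, VPS13C in HEC265 and NBEA in SNGM each lost it in 4. SYNE2 in SNGM and NBEA in Ishikawa each lost it in 1. The calls of SYNE2 in HEC265 and of VPS13A and VPS13C in Ishikawa-S33Y were kept in all 14.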

How the results depend on the processing

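Counts are of the 39 members called, by limma unless stated. Shares of all genes are given above only for the main fit and, against vehicle, for the own-line fits. For the other settings, a shift of the members cannot be told apart from a shift in the calls of all genes. With the length score, SM08502 gave 14, 24, 13 and 13 (in the order Ishikawa, Ishikawa-S33Y, SNGM, HEC265), with 25 differing between lines; the combination gave 16, 26, 14 and 15, with 30 differing; the combination against paclitaxel gave 7 in Ishikawa, 15 in SNGM and 14 in HEC265; 13 differed between Ishikawa-S33Y and Ishikawa on vehicle, and 3 were called in no line. Own-line fits gave 0, 26, 0 and 21 for SM08502, 1, 29, 3 and 24 for the combination, 0, 29, 0 and 20 against paclitaxel, 1 for the combination against SM08502 in Ishikawa-S33Y, and 2 in no line. Quality weights gave 2, 26, 11 and 24 for SM08502 (23 differing), 18 in Ishikawa, 1 in SNGM and 23 in HEC265 for the combination (23 differing), 0, 0 and 21 in Ishikawa, SNGM and HEC265 against paclitaxel, and 2 in no line. Median re-centring gave 8, 5 and 11 in Ishikawa, SNGM and HEC265 for SM08502, 8 and 11 in SNGM and HEC265 against paclitaxel, and 20 differing for the combination. Quantile normalization gave 9 and 6 in Ishikawa and SNGM and 16 differing for SM08502, and 8 in Ishikawa and 8 in HEC265 against paclitaxel. Without a filter, 6 differed for SM08502, the combination gave 4 in SNGM and 5 in HEC265, and 2 in SNGM against paclitaxel. Voom gave 7 in SNGM for SM08502, and 2 in SNGM and 9 in HEC265 against paclitaxel; it turned DYNC2H1 averaged over lines with the combination from -0.30 to 0.00507. Pseudocount 0.1 gave 1 in SNGM against paclitaxel.

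The replicate block moved 1 count by over 1.5 times, the combination against paclitaxel in SNGM, to 3. Replicate numbers pair no samples by the labels, and same-numbered libraries had correlations of deviations from -0.45 to 0.70.

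With 1 library left out, counts ranged over 1 to 8, 7 to 9, 0 to 1 and 2 to 3 for SM08502 (5 to 11 differing, 13 to 18 averaged); 4 to 6, 11 to 15, 1 to 14 and 3 to 4 for the combination (8 to 18 differing, 18 to 22 averaged); 1 to 28, 13 to 16, 0 to 10 and 3 to 3 against paclitaxel (17 to 26 averaged); 0 to 10 for paclitaxel in Ishikawa and 0 in the other lines; 0 to 1 in Ishikawa-S33Y and 0 to 4 in SNGM for the combination against SM08502 and 0 in Ishikawa and HEC265; 19 to 26 on vehicle; and 11 to 17 in no line. The cause of these shifts was not tested. Low depth limits the combination libraries of SNGM and Ishikawa-S33Y.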
